A study of Mus musculus with 6 samples.

Results

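A set of 33 genes of glycolysis and of the response to low oxygen was followed in BV2, a line of mouse microglia immortalised in culture (C57BL/6 background), with and without human apolipoprotein E4 added as the full-length protein (FL-ApoE4). The genes were chosen by name from the 40202 genes listed. They comprise 18 glycolytic enzymes, 2 transporters, and 13 targets and regulators of hypoxia-inducible factor (HIF). Total RNA was sequenced from 3 untreated samples, called Control, and from 3 samples of cells incubated with the protein at 25 µg/ml for 5 hours. The labels name no vehicle for the untreated samples and do not say whether replicates were separate cultures, so the spread behind each p-value may be partly or wholly technical. Only these 2 groups of 3 are compared, and the design is stated as an assessment of transcriptional changes after exposure to the full-length protein.

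Glycolysis splits glucose into pyruvate and yields ATP without oxygen. Its flux is set mainly at glucose entry and at the hexokinase and phosphofructokinase steps, while most of the steps in between run near equilibrium. HIF-1 is a dimer of HIF-1α and ARNT, and HIF-1α is degraded after prolyl hydroxylation when oxygen is ample. The stable dimer binds RCGTG elements near glycolytic and other target genes. Macrophages and microglia are known to raise glycolysis when activated by inflammatory stimuli, in part through HIF-1α.

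The core of the pathway differed little between the groups. The 9 main genes of the steps other than phosphofructokinase between glucose 6-phosphate and lactate (Gpi1, Aldoa, Tpi1, Gapdh, Pgk1, Pgam1, Eno1, Pkm and Ldha) had log2 fold changes between -0.02 and 0.04. The larger differences lay at the phosphofructokinase step and in single HIF targets, and they pointed both ways. Pfkp and Hilpda were lower with FL-ApoE4 in every library, and Pfkfb3 was higher. None of the 31 genes tested passed the threshold in limma with all 6 libraries (adjusted p under 0.05), where percent called over all 14079 genes tested was 0. At an unadjusted p under 0.05 limma gave 3 higher and 3 lower among the 31, against 1850 of 14079 genes (13.1%).

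The libraries held 45700128 to 54965393 assigned reads, and values below are reads scaled per library by the authors (normalised reads). Of 13 microglia and macrophage markers, 12 were above 0 in every library and P2ry12 was listed at 0 in all. Their summed level was 208757 to 211845 normalised reads in controls and 230759 to 237689 with FL-ApoE4, without overlap, and the part of this shift in the results was not tested. Markers of astrocytes, neurons, endothelium and fibroblasts summed to at most 90.1 in any library, and those of oligodendrocytes to 1151 to 1295. Control replicate 1 stood apart: its log2 values spread around the mean of the other controls with an SD of 0.43, against 0.29 and 0.30 for the other controls. FL-ApoE4 replicate 1 deviated from its group by transcript length (Spearman rho -0.47 across genes, against 0.35 and 0.33 for the other FL-ApoE4 libraries). Results that rest on either library are therefore given with and without it. Without Control replicate 1, limma called 4.62% of all genes tested, 2.93% higher and 1.69% lower. The same fit called 1 member higher (Pfkfb3) and 2 lower (Pfkp and Hilpda) of 31. With 2 libraries a group, after both replicates 1 were left out, it called 1 higher (Pfkfb3) and 4 lower (Pfkp, Hilpda, Hk1 and Mxi1), against 7.02% and 5.53% of all genes.

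Other tests of the same libraries gave other counts of calls. With all 6 libraries, edgeR called 0 genes (1844 of 14079 at an unadjusted p under 0.05, 13.1%). DESeq2 called Pfkp and Hilpda, 2 of the members, and 2.91% of the 12711 genes to which it gave an adjusted p. In limma with libraries weighted by quality, 4 members were called (Pfkfb3, Pfkfb4, Pfkp and Hilpda) and 11% of all genes. Without Control replicate 1, edgeR called 3 members and 4.91% of all genes. Without the same library DESeq2 called 4 members and 7.71% of the 12441 genes to which it gave an adjusted p.

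Groups that did not overlap were counted as well. Of the 31 members, 9 (29.0%) had all 3 FL-ApoE4 libraries on one side of all 3 controls, against 21.9% of all genes tested. Higher in all were Pfkfb3, Pfkfb4, Aldoc, Ankrd37 and P4ha1, 5 members, against 11.1% of all genes. Lower in all were Pfkp, Slc2a1, Ero1a and Hilpda, 4 members, against 10.9%. The authors' deposited table gives an adjusted p for 30 members and places 3 under 0.05, Pfkp, Pfkfb3 and Hilpda. That table places 2.85% of its genes with an adjusted p under 0.05.

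**Figure D1:**
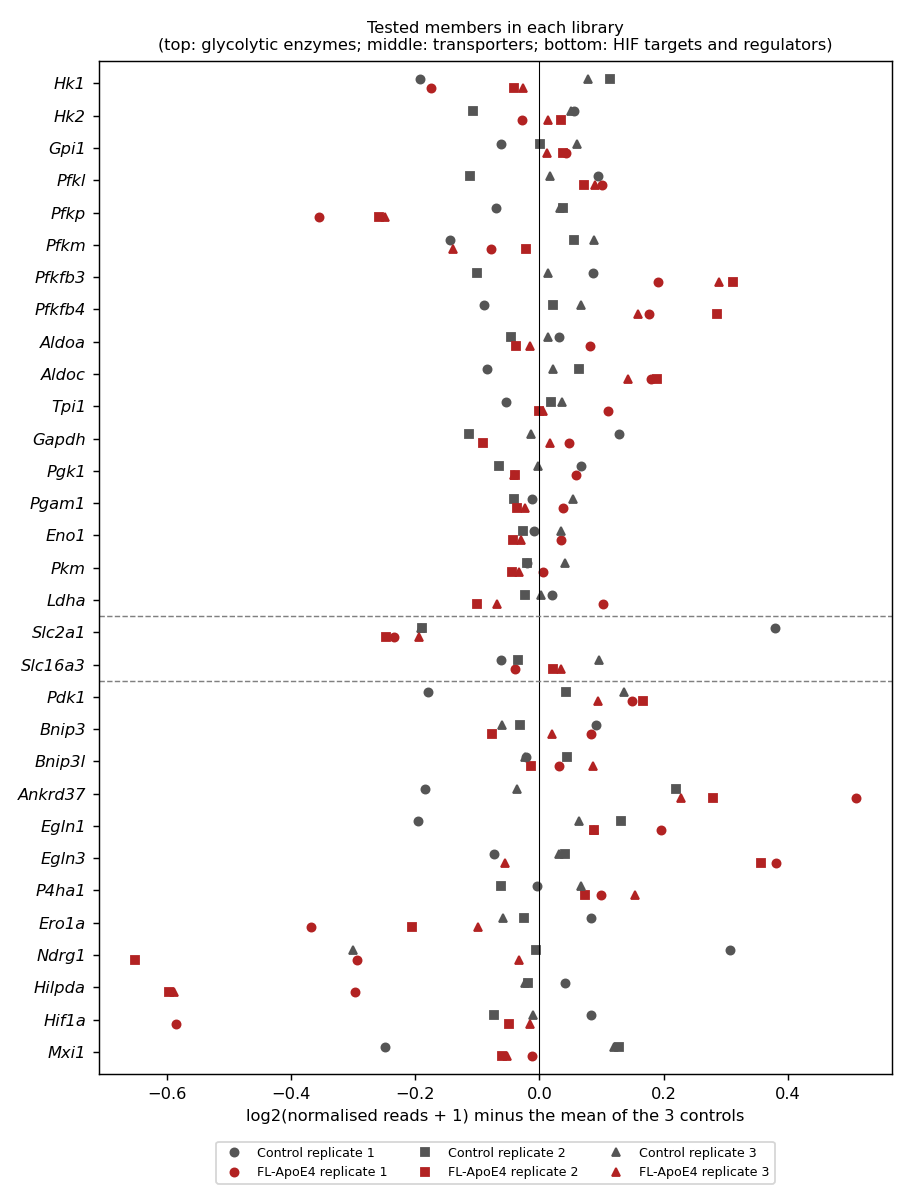
Each tested member in each library, as log2(normalised reads + 1) minus the mean of the 3 controls. Grey symbols are Control and red symbols FL-ApoE4, and the symbol shape gives the replicate. Pfkp, Hilpda and Ero1a lie left of all controls and Pfkfb3, Pfkfb4 and Aldoc right of them, while the red circle of Hif1a and the grey circle of Slc2a1 stand apart from their groups.

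Promoter stretches of 6 members that the results turn on are shown here, since HIF binds the core RCGTG. The search covered ACGTG and GCGTG on either strand in the 250 bases before each start site (RefSeq, GRCm38.p6, a build other than that of the deposited table). ACGTG is also contained in CACGTG, the E-box bound by MYC and USF proteins. Promoter entries matched 31 of the 33 members by symbol. Stretches of these promoters follow, 5′ to 3′ in the direction of the gene, with capitals marking the core on either strand (CACGT and CACGC are the reverse complements).
Pfkp, chr13:6648785-6648844, minus strand: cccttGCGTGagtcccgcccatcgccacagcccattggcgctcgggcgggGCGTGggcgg
Pfkfb3, chr2:11553958-11554017, minus strand: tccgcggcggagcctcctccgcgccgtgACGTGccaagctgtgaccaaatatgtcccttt
Ldha, chr7:46845733-46845792, plus strand: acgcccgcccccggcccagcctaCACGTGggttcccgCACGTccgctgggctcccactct
Slc2a1, chr4:119108669-119108728, plus strand: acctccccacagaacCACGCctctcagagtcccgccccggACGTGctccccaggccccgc
Ero1a, chr14:45318616-45318675, minus strand: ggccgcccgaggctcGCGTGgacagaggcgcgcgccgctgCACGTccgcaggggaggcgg
Hilpda, chr6:29272570-29272599, plus strand: ggatggccagcggACGTGccccagggcgag
These windows end 14 bases (Pfkp), 29 bases (Pfkfb3) and 12 bases (Ldha) before the start site. Those of Slc2a1, Ero1a and Hilpda end 17, 44 and 27 bases before it. Pfkfb3, Ldha and Hilpda each have a further annotated start, whose window is not shown. A match to the letters is a description of the window and not evidence of binding.

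A core was found for 28 of 31 members (90.3%), against 6568 of 11087 tested genes with a promoter entry (59.2%). ACGTG alone was found for 19 members (61.3%) and for 24.6% of those genes. Counted per 250-base window, since a gene can have several starts, 37 of 47 member windows (78.7%) and 53.3% of all windows held a core. Member windows had a median GC content of 61.6%, against 58.8%. The members were chosen by name as genes of glycolysis and of the HIF response, so these shares describe that choice and are no test. The 31 members with a promoter entry include Adm and Eno2, which were not among the genes tested. The core was present in the window of Pfkp, whose values were lower with FL-ApoE4, and in the windows of Pfkfb3, whose values were higher. In Hilpda, whose values were lower, it was present before the start shown, while the window of the other annotated start held 0 cores.

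Phosphofructokinase makes the first committed step of glycolysis, and vertebrates carry a liver (Pfkl), a platelet (Pfkp) and a muscle (Pfkm) isoenzyme gene. Pfkp was at 5969, 6429.8 and 6410.2 normalised reads in Control replicates 1 to 3 and at 4902, 5241 and 5275 with FL-ApoE4. All treated libraries lay below all controls. The means were 6269.6 ± 261 and 5139 ± 206 (SD, n = 3 each), a log2 fold change of -0.29 ± 0.06 (SE, 95% interval -0.42 to -0.16), limma adjusted p = 0.130. Leaving out Control replicate 1 gave -0.32 ± 0.05, limma adjusted p = 0.0112. The authors' deposited table gives -0.29 with an adjusted p of 0.00475.

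Neither of the other isoenzymes separated the groups. Pfkl was at 5866, 5089 and 5565 in controls and at 5898, 5778 and 5852 with FL-ApoE4, 5506 ± 392 against 5843 ± 60.2. The log2 fold change of Pfkl was 0.09 ± 0.06 (95% interval -0.06 to 0.23, limma adjusted p = 0.597), and 0.13 without Control replicate 1 (limma adjusted p = 0.216). Pfkl varied more among controls than among treated libraries. Pfkm was at 1563, 1796 and 1836 in controls and at 1636, 1702 and 1569 with FL-ApoE4, a log2 fold change of -0.08 ± 0.08 (-0.26 to 0.10, limma adjusted p = 0.730). Its lowest library was Control replicate 1, and without it the value was -0.15 (limma adjusted p = 0.212).

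On a scale of normalised reads per kilobase of transcript, Pfkp and Pfkl were near equal in controls, at means of 1513 and 1476, and Pfkm was at 602. With FL-ApoE4 they were at 1239.8, 1566 and 568. The Pfkp share of phosphofructokinase reads per kilobase was 40.5%, 43.8% and 42.1% in controls and 35.5%, 37.1% and 37.6% with FL-ApoE4, without overlap. The Pfkl share was 44.2%, 38.5% and 40.6% in controls and 47.5%, 45.5% and 46.3% with FL-ApoE4. Pfkl was thus ahead of Pfkp in all 3 FL-ApoE4 libraries and in Control replicate 1, and Pfkp was ahead in the other controls. As normalised reads, not scaled by length, the ratio of Pfkp to Pfkl was 1.02, 1.26 and 1.15 in controls and 0.831, 0.907 and 0.901 with FL-ApoE4. These shares are descriptions of the same libraries as the fold changes and were not tested.

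**Figure D2:**
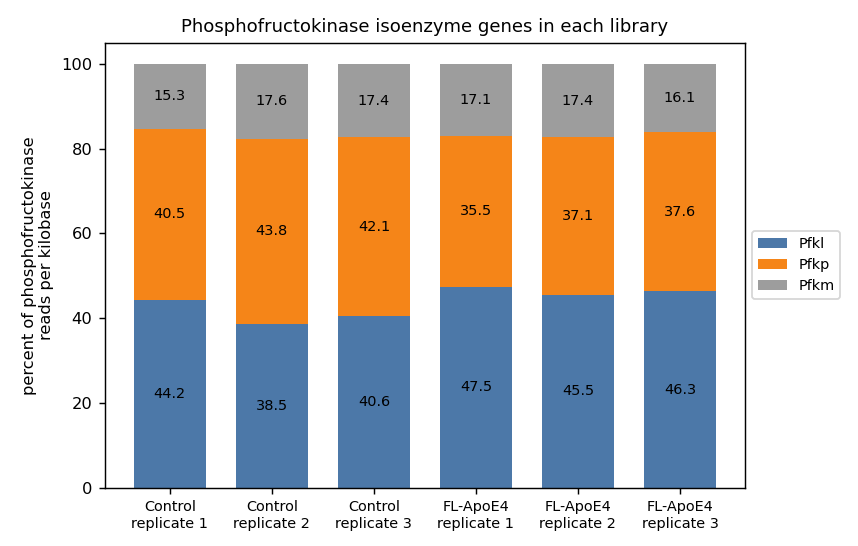
Share of Pfkl, Pfkp and Pfkm in the phosphofructokinase reads per kilobase, in percent, 1 bar per library. The Pfkp segment is 40.5 to 43.8% in the 3 controls and 35.5 to 37.6% in the 3 FL-ApoE4 libraries.

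PFKFB3 and PFKFB4 make and break down fructose 2,6-bisphosphate, the strongest allosteric activator of phosphofructokinase, and PFKFB3 acts almost only as the kinase. Pfkfb3 was at 2845, 2501 and 2707 normalised reads in controls and at 3059.9, 3327 and 3276 with FL-ApoE4. The lowest treated library lay above the highest control. The means were 2685 ± 173 and 3221 ± 142, a 1.20-fold ratio. The log2 fold change was 0.26 ± 0.07 (95% interval 0.11 to 0.42, limma adjusted p = 0.194). It was 0.31 ± 0.06 without Control replicate 1, limma adjusted p = 0.0290, and 0.26 in the authors' deposited table with an adjusted p of 0.0495. Pfkfb3 values were thus on the opposite side from those of Pfkp in the same libraries.

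Pfkfb4 was at 1111, 1199.8 and 1237 in controls and at 1335, 1441 and 1319 with FL-ApoE4. The means were 1183 ± 64.8 and 1365 ± 65.9, a log2 fold change of 0.21 ± 0.07 (0.04 to 0.37, limma adjusted p = 0.274). The groups did not overlap, but the gene missed the threshold, also without Control replicate 1 (0.16 ± 0.07, limma adjusted p = 0.218). Per kilobase Pfkfb3 was the more abundant, at 579 in controls and 695 with FL-ApoE4, against 339 and 391 for Pfkfb4.

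Hexokinase traps glucose in the cell as glucose 6-phosphate. Hk2, the isoenzyme induced in activated and proliferating cells, was at 9709, 8673 and 9673 in controls and at 9156, 9562 and 9426 with FL-ApoE4. Hk2 had a log2 fold change of 0.01 ± 0.06 (95% interval -0.13 to 0.14). Hk1, the housekeeping isoenzyme, was at 3519.8, 4353 and 4247 in controls and at 3562, 3910.3 and 3948 with FL-ApoE4, with replicate 1 the lowest of both groups. The difference in Hk1 was -0.08 ± 0.09 on the log2 scale (limma adjusted p = 0.775), and -0.18 ± 0.06 without Control replicate 1 (limma adjusted p = 0.147). Without both replicates 1 it was -0.13 and limma called it lower (adjusted p = 0.0426), in a fit that called 12.6% of all genes. Of the reads per kilobase of Hk1 and Hk2 together, Hk2 made up 58.2 to 65.8% in controls and 62.5 to 64.2% with FL-ApoE4. These ranges overlapped. Another hexokinase gene, Hk3, was not a member and was left out of this share.

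Aldolase splits fructose 1,6-bisphosphate, and its A form predominates in most cells. Aldoa accounted for 98.0 to 98.4% of the reads per kilobase of Aldoa and Aldoc in every library. The minor gene Aldoc was at 2546, 2821 and 2739 in controls and at 3057, 3079.6 and 2982 with FL-ApoE4. All treated libraries lay above all controls, by means of 3039 ± 51.3 against 2702 ± 141. The log2 fold change was 0.17 ± 0.06 (0.04 to 0.30, limma adjusted p = 0.274), and 0.13 ± 0.05 without Control replicate 1 (limma adjusted p = 0.212). Aldoa itself had a log2 fold change of 0.01 ± 0.05.

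The core enzymes other than Gapdh were the most abundant of the pathway. In controls Aldoa stood at 55808 normalised reads per kilobase, Pkm (pyruvate kinase) at 35533, Ldha at 32066 and Eno1 (enolase) at 28353. Tpi1 (triose phosphate isomerase), Pgk1 (phosphoglycerate kinase), Gpi1 (glucose phosphate isomerase) and Pgam1 (phosphoglycerate mutase) followed at 14942, 13809.6, 10476 and 4723. The order of these 8 genes was the same with FL-ApoE4, from 56208 for Aldoa to 4699 for Pgam1. All 8 stood above every hexokinase and phosphofructokinase gene among the members on that scale, of which Hk2 was the highest at 1696. The hexokinase gene Hk3, not among the members, was at 2186 in controls, above Hk2 and below all 8.

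**Figure D3:**
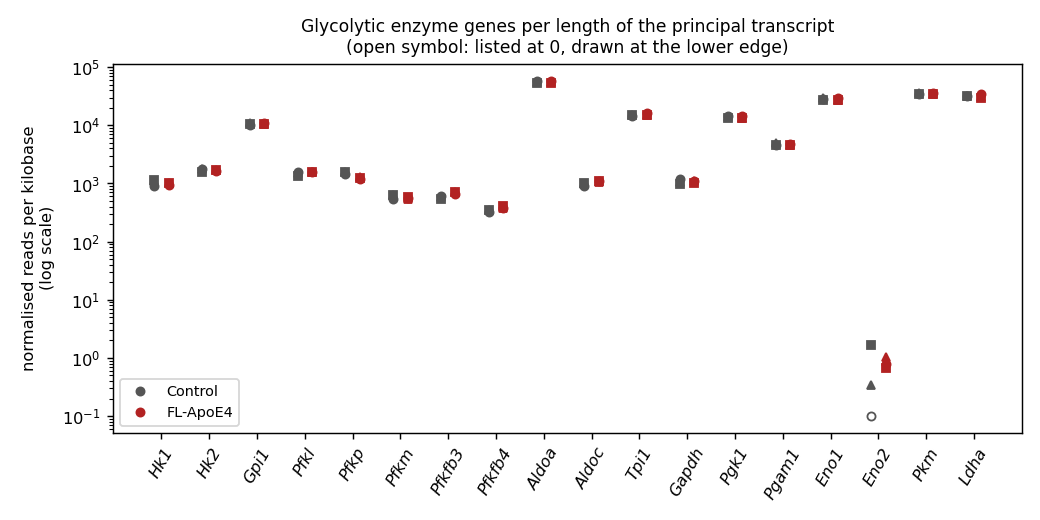
Normalised reads per kilobase of transcript for the 18 glycolytic enzyme genes on a log axis, with 1 symbol per library (grey Control, red FL-ApoE4). The genes range from Eno2, at 0 to 5 reads in any library, to Aldoa, and in each gene but Eno2 the 2 groups lie close together on this scale.

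Ldha, which reduces pyruvate to lactate, is a HIF target with paired cores in its promoter, printed above. It was at 57433, 55710.4 and 56743 normalised reads in controls and at 60816, 52838 and 53999 with FL-ApoE4. The treated libraries lay on both sides of the controls, with FL-ApoE4 replicate 1 the highest of all 6. The means were 56629 ± 867 and 55884 ± 4309.9, a log2 fold change of -0.02 ± 0.06 (95% interval -0.17 to 0.12, limma adjusted p = 0.929). FL-ApoE4 replicate 1 was above the mean of the other treated libraries in all 9 of the core genes, by 0.02 to 0.19 on the log2 scale. Without both replicates 1, the 9 log2 fold changes lay between -0.07 and 0.03.

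The widest 95% bounds among the 9 core genes were -0.19 and 0.18, so larger differences lie outside the interval of each. Of the 17 glycolytic enzymes tested, 13 (76.5%) had a log2 fold change within 0.1 of 0, against 51.0% of all genes tested. The contrast was smaller without Control replicate 1, at 10 of the 17 (58.8%) against 49.3%. Without both replicates 1 it was 58.8% against 52.6%. With all 6 libraries the median over the 17 was -0.01, with 8 above and 9 below 0, and over all genes it was 0.00. The enzymes also varied little among controls, with a median coefficient of variation of 4.57% against 8.11% for all genes. They are not matched to all genes by level: each of the 17 had a mean above that of 49.8 to 99.8% of genes tested. Among genes with a mean of at least 50, 57.5% lay within 0.1 of 0. The part of level in these contrasts was not tested. Summed over the enzymes, normalised reads were 407462, 400022 and 415496 in controls and 421651, 397681 and 400596 with FL-ApoE4. These sums overlapped, and they made up 0.769 to 0.816% of assigned reads in controls and 0.780 to 0.827% with FL-ApoE4. In bulk RNA, fewer cells of a kind and less RNA per cell cannot be told apart.

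Gapdh, the glyceraldehyde 3-phosphate dehydrogenase often used as a reference gene, was listed far below its neighbours in the pathway. It was at 1672, 1414 and 1516 in controls and at 1582, 1437 and 1549 with FL-ApoE4, 1534 ± 130.1 against 1522 ± 75.9. The log2 fold change was -0.01 ± 0.08 (-0.19 to 0.18, limma adjusted p = 0.978), with overlapping groups. Per kilobase it was 1080.5 in controls and 1072 with FL-ApoE4, against 14942 and 15344 for Tpi1, which acts just before it. Of the 1371 windows of 50 bases in the Gapdh transcript, 82.5% also occur in other annotated genes (222 of them), against 7.51% for Tpi1. Windows of other members were shared too, at 72.2% for Eno1, 68.0% for Pgk1, 62.4% for Bnip3 and 41.5% for Pgam1, so the listed levels of these genes are uncertain. Smaller shares were found for Pkm (34.4%), Gpi1 (25.3%) and Ldha (17.1%), among others. Pfkp shared 17.1% of its windows, against 0.05% for Pfkl and 0% for Pfkm, so the phosphofructokinase shares above carry some of this uncertainty. How reads that fit several places were counted is not given in the sources used here, and the part of shared sequence in the Gapdh level was not tested. Eno2, the neuronal enolase, had 0, 5 and 1 reads in controls and 2, 2 and 3 with FL-ApoE4 and was too low to test.

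SLC2A1 (GLUT1) brings glucose into the cell and SLC16A3 (MCT4) exports lactate. Slc2a1 was at 8557, 5769 and 5764 normalised reads in controls and at 5591, 5539 and 5749.8 with FL-ApoE4. Control replicate 1 was 0.57 above the other controls on the log2 scale, while the other 5 libraries lay within 5539 to 5769. The means were 6696 ± 1611 and 5627 ± 109.8, a log2 fold change of -0.23 ± 0.15 (-0.57 to 0.11, limma adjusted p = 0.562). Without Control replicate 1 it was -0.04 ± 0.05 (-0.14 to 0.07, limma adjusted p = 0.739), so the size of the difference came from that library. Slc16a3 was at 2537, 2586 and 2829.6 in controls and at 2576, 2688 and 2712 with FL-ApoE4, a log2 fold change of 0.01 ± 0.06 (-0.14 to 0.15, limma adjusted p = 0.983). Leaving out Control replicate 1 gave -0.03.

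**Figure D4:**
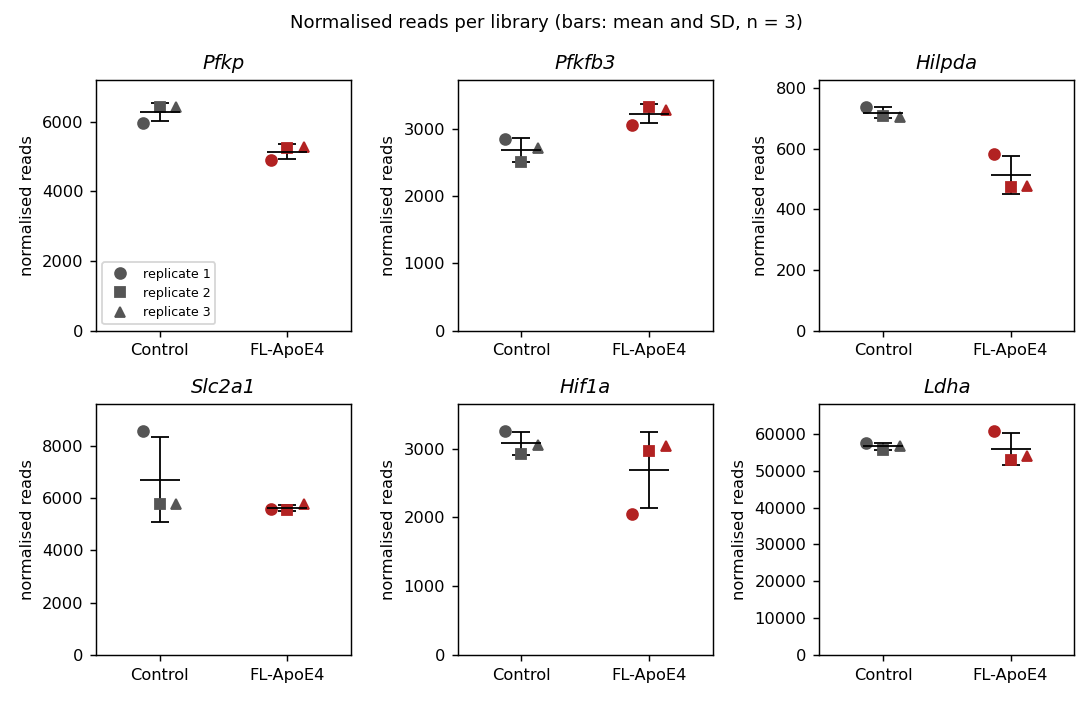
Normalised reads per library for Pfkp, Pfkfb3, Hilpda, Slc2a1, Hif1a and Ldha, with the mean and SD of each group of 3 (symbol shapes give the replicate, axes start at 0). The groups are apart in Pfkp, Pfkfb3 and Hilpda, while the difference in means rests on Control replicate 1 in Slc2a1 and on FL-ApoE4 replicate 1 in Hif1a.

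Hif1a encodes the oxygen-regulated subunit of HIF-1, which is controlled chiefly through protein stability, a property that RNA levels do not show. It was at 3257, 2921 and 3051 normalised reads in controls and at 2048, 2971 and 3040.3 with FL-ApoE4. FL-ApoE4 replicate 1 was 0.55 below the mean of the other treated libraries on the log2 scale, and those others overlapped the controls. The log2 fold change was -0.22 ± 0.15 (95% interval -0.56 to 0.13, limma adjusted p = 0.583), and it was -0.03 without FL-ApoE4 replicate 1. The Hif1a transcript has 4724 bases, and after correction of each library for transcript length and GC content the value was -0.16.

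The prolyl hydroxylases mark HIF-α for degradation and are themselves HIF targets. Egln1 was at 4173, 5236 and 4992 in controls and at 5475, 5080.2 and 5076 with FL-ApoE4, a log2 fold change of 0.12 ± 0.09 that was 0.03 without Control replicate 1. Egln3 was barely detected, with 8 to 10 reads in controls and 9 to 13 with FL-ApoE4, and its interval of -0.43 to 0.88 leaves its direction undetermined. Mxi1, a MYC antagonist, was at 4030.2, 5234 and 5202 in controls and at 4748, 4589.8 and 4616 with FL-ApoE4. Mxi1 had a log2 fold change of -0.04 ± 0.10, and -0.17 ± 0.05 without Control replicate 1 (limma adjusted p = 0.0935). Without both replicates 1, limma called Mxi1 lower (-0.18, adjusted p = 0.00593).

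Hilpda, a HIF target that coats lipid droplets and inhibits the lipase ATGL, had the log2 fold change of largest size among the 31 members tested. It was at 739.6, 709 and 707 normalised reads in controls and at 585, 475 and 478 with FL-ApoE4. The controls lay close together, and all treated libraries lay below them. The means were 719 ± 18.2 and 512 ± 62.6, a 0.713-fold ratio. The log2 fold change was -0.49 ± 0.10 (-0.72 to -0.27, limma adjusted p = 0.136). It was -0.47 ± 0.10 without Control replicate 1 (limma adjusted p = 0.0387) and -0.49 in the authors' deposited table, with an adjusted p of 0.00278.

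Ero1a, the oxidase that drives disulphide formation in the endoplasmic reticulum, was at 5308, 4925 and 4812 in controls and at 3881, 4344 and 4679 with FL-ApoE4. The groups did not overlap, though FL-ApoE4 replicate 3 came close to the lowest control. The means were 5015 ± 260.1 and 4301 ± 401, a log2 fold change of -0.22 ± 0.08 (-0.41 to -0.04, limma adjusted p = 0.290). Leaving out Control replicate 1 gave -0.18 ± 0.08 (limma adjusted p = 0.235), and without both replicates 1 it was -0.11. Ndrg1, a stress-induced gene, was at 2053, 1652 and 1347 in controls and at 1353, 1056 and 1622 with FL-ApoE4. The spread within both groups was wide, and the log2 fold change of -0.33 ± 0.19 (-0.77 to 0.12, limma adjusted p = 0.520) was -0.17 ± 0.16 without Control replicate 1.

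Other HIF targets lay on the higher side. Ankrd37, a small ankyrin-repeat gene, was at 85.8, 114 and 95.2 in controls and at 139, 119 and 115 with FL-ApoE4, a log2 fold change of 0.34 ± 0.15 (-0.02 to 0.70, limma adjusted p = 0.406). Its groups were apart by a narrow margin. Without Control replicate 1 the Ankrd37 value was 0.25 ± 0.15 (limma adjusted p = 0.424), and without both replicates 1 it was 0.16 ± 0.16. P4ha1, a subunit of the enzyme that hydroxylates collagen prolines, was at 4239.8, 4074 and 4456 in controls and at 4556, 4477 and 4735 with FL-ApoE4. Its log2 fold change was 0.11 ± 0.05 (-0.02 to 0.24, limma adjusted p = 0.450), with and without Control replicate 1.

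PDK1 phosphorylates and so inhibits pyruvate dehydrogenase in the mitochondrial matrix, which limits the conversion of pyruvate to acetyl-CoA. Pdk1 was at 5581, 6510.4 and 6939.8 in controls and at 7005, 7091 and 6745 with FL-ApoE4. The groups overlapped through Control replicate 3, and the log2 fold change of 0.14 ± 0.08 (-0.05 to 0.33, limma adjusted p = 0.531) was 0.05 ± 0.05 without Control replicate 1. The mitophagy receptor genes Bnip3 and Bnip3l had log2 fold changes of 0.01 ± 0.07 and 0.03 ± 0.05. Adm, the gene of the vasodilator adrenomedullin, was listed at 0 in all 6 libraries, as was B2m, which nearly all cells express, so nothing can be read from that 0.

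Over the 12 HIF targets and regulators tested, 7 log2 fold changes were above and 5 below 0, with a median of 0.02 and a range of -0.49 to 0.34. Only 3 of the 12 lay within 0.1 of 0, where 13 of the 17 glycolytic enzymes did. Without Control replicate 1 these numbers were 4 of the 12 and 10 of the 17. With all 6 libraries, limma gave 0 of the 12 higher and 2 lower (Hilpda and Ero1a) at an unadjusted p under 0.05. The shares of all genes tested were 6.81% and 6.33%. Their summed level was 34852, 36806 and 36825 normalised reads in controls and 35310.5, 35435 and 36704 with FL-ApoE4, which overlapped. The list thus had no common direction in these libraries.

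**Figure D5:**
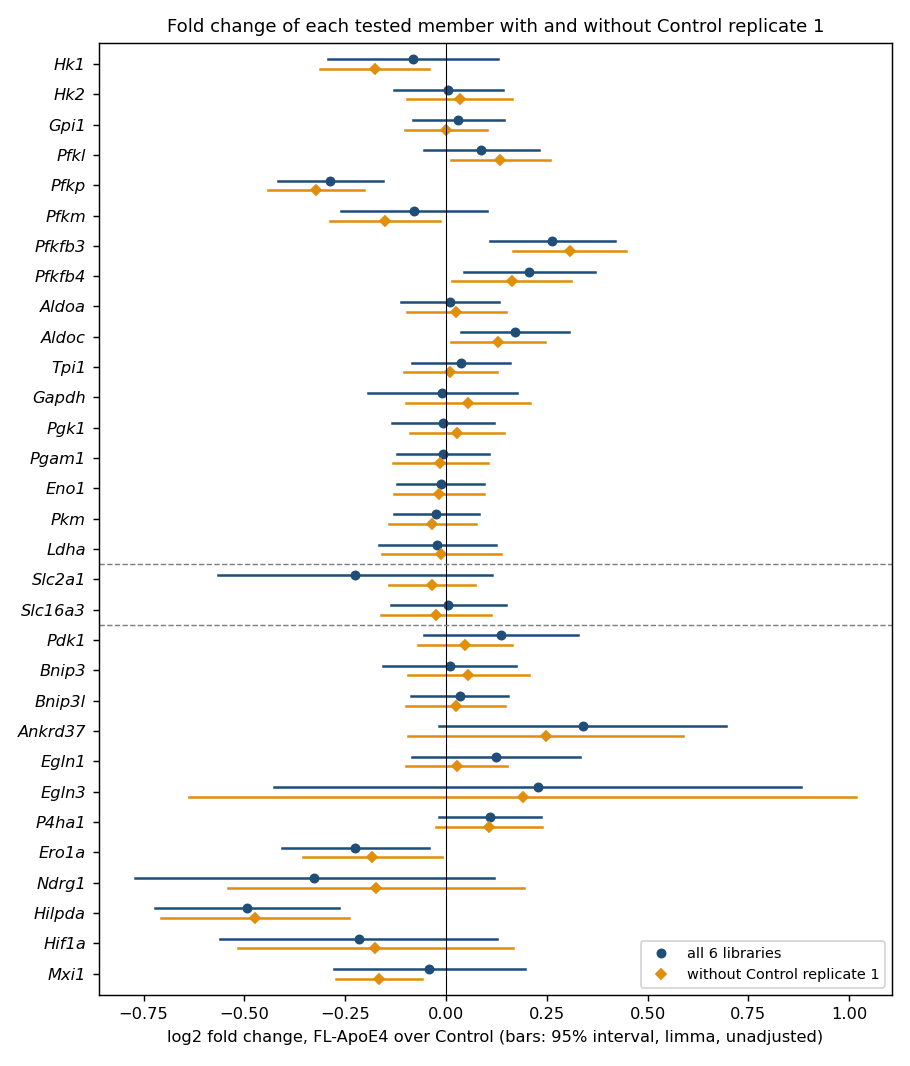
Log2 fold change of FL-ApoE4 over Control for each of the 31 tested members with its unadjusted 95% interval from limma, with all 6 libraries (circles) and without Control replicate 1 (diamonds). Most glycolytic enzymes lie near 0, Pfkp and Hilpda lie below 0 and Pfkfb3 above 0 in both fits, and the value of Slc2a1 moves from -0.23 to -0.04.

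Other genes of the same pathways, taken from lists that do not contain the members, were read the same way. Of 36 further genes of glycolysis, pyruvate handling and sugar transport, 25 were tested and 0 had an unadjusted limma p under 0.05, with a median log2 fold change of 0.02. Those of lowest p were Galm (galactose mutarotase, 0.12 ± 0.06), Slc2a8 (an intracellular hexose transporter, -0.21 ± 0.10), Pdp1 (a pyruvate dehydrogenase phosphatase, -0.22 ± 0.11) and Mpc1 (a mitochondrial pyruvate carrier, -0.24 ± 0.13). Their limma adjusted p lay between 0.426 and 0.476. Without Control replicate 1, limma called 1 of the 25 higher (2.93% of all genes), the hexose transporter gene Slc2a6, named here after its value was seen. Slc2a6 was at 9559, 4714 and 4778 in controls and at 7443, 7126 and 6472 with FL-ApoE4, a log2 fold change of 0.22 ± 0.25 with all 6 libraries and 0.56 ± 0.06 without Control replicate 1 (limma adjusted p = 0.00269). As in Slc2a1, Control replicate 1 was the highest of all 6 libraries.

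Of 54 further HIF pathway genes, 45 were tested, 19 with a log2 fold change above and 26 below 0, at a median of -0.03. At an unadjusted limma p under 0.05 there were 3 higher and 9 lower, against 6.81% and 6.33% of all genes tested. Groups did not overlap in 5 higher and 11 lower genes of the 45, against 11.1% and 10.9% of all genes. None passed the adjusted threshold in limma or edgeR with all 6 libraries. DESeq2 with all 6 libraries called 0 higher and 4 lower in this list (Vegfa, Ddit4, Rab20 and Cited2). It called 2.91% of all genes to which it gave an adjusted p, in either direction. Without Control replicate 1, limma called 0 of the 45 higher and 6 lower, against 2.93% and 1.69% of all genes. Among them were Vegfa, Ddit4, Rab20, Cited2 and Plin2, the last 2 of these named after their values were seen.

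Vegfa, the angiogenic growth factor, was at 3012, 3350.1 and 3078 in controls and at 1941, 2027 and 2222 with FL-ApoE4. Its log2 fold change was -0.61 ± 0.07 (limma adjusted p = 0.0666), and -0.64 without Control replicate 1 (limma adjusted p = 0.00246). Ddit4, an inhibitor of mTORC1 induced by hypoxia and other stresses, was at 305, 562 and 516 in controls and at 159.5, 140.0 and 220.2 with FL-ApoE4. Its log2 fold change was -1.38 ± 0.26 (limma adjusted p = 0.125), and -1.66 without Control replicate 1 (limma adjusted p = 0.00210). Both genes were thus lower in all treated libraries, as was Hilpda among the members.

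Rab20, a small GTPase of phagosomes, was at 2373, 1659 and 1508 in controls and at 1066, 1036 and 1115 with FL-ApoE4. Its log2 fold change was -0.76 ± 0.16 (limma adjusted p = 0.151), and -0.56 without Control replicate 1 (limma adjusted p = 0.00358). On the higher side, Ppfia4, a liprin scaffold gene, was at 18.5, 26.6 and 29.2 in controls and at 53.5, 42.6 and 45.0 with FL-ApoE4. The difference in Ppfia4 was 0.92 ± 0.23 on the log2 scale (limma adjusted p = 0.190). Leaving out Control replicate 1 gave 0.73 (limma adjusted p = 0.0961). Plin2, which like Hilpda encodes a lipid droplet protein, was at 3509, 4201 and 3999.9 in controls and at 3333, 3188 and 3526 with FL-ApoE4. The Plin2 groups overlapped, with a log2 fold change of -0.22 ± 0.08 and, without Control replicate 1, -0.29 (limma adjusted p = 0.0297). Cited2, which competes with HIF-1α for its coactivators, was at 5696, 4121 and 3857 in controls and at 3437, 3174 and 3271 with FL-ApoE4. Its log2 fold change was -0.45 ± 0.14 with all 6 libraries (limma adjusted p = 0.242) and -0.28 without Control replicate 1 (limma adjusted p = 0.0339). In Cited2, Control replicate 1 was the highest library, and the other controls still lay above all treated libraries.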

How the data were processed

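RNA-seq of 3 Control and 3 FL-ApoE4 samples was used, grouped by the labels. The submitters' processing notes name the build GRCm39 and DESeq2 1.30.1, HTSeq, HISAT2 2.2.1 and FastQC 0.11.8. No settings, annotation or strand rule are given in the sources used here, which leaves genes that overlap or lie antisense to another uncertain. The deposited table gives a normalised signal per gene and library. Each value was a whole multiple of its column's smallest (tolerance 0.01, 100% of values), which gave whole reads. The authors' deposited comparison gives a log2 fold change, its standard error, a Wald score and p-values, quoted only where named.

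Groups were compared on log2(value + 1) by limma 3.58.1 in R 4.3.3, two-sided and with its variance trend, over 14079 genes with a mean of at least 10, adjusted by Benjamini-Hochberg, threshold 0.05. The pseudocount slightly understates changes of low genes. In edgeR 4.0.16 (quasi-likelihood) and DESeq2 1.42.0, recovered reads were tested as alternatives. The limma code was tested on simulated data. Lengths and 50-base windows came from principal transcripts of GENCODE M21 (GRCm38). Members and lists were chosen with earlier results of these data known, so no list was tested as a set. Values per library are given for the 6 members of lowest p among enzymes and among HIF genes, both transporters, Hif1a, Gapdh and Ldha, and of each wider list the 4 genes of lowest p were named. Hk1, Hk2, Egln1, Egln3, Mxi1, Eno2, Slc2a6, Plin2 and Cited2 were given so after their values were seen, and a further gene of the wider HIF list is not reported here. The alternatives were other pseudocounts, filters, scalings, variance settings, a replicate block, a length and GC correction, and fits without single libraries. The fit without both replicates 1 was chosen after seeing the data.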

Additional observations from a re-analysis of the deposited data

How the results depend on the processing

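With 3 libraries a group, precision rested mainly on the spread between libraries, and reads were few only in Eno2, Egln3, Ankrd37 and Adm among the members. With all 6 libraries limma called 0 genes. The numbers called higher and lower over all genes were 886 and 665 with array quality weights, 191 and 179 by DESeq2 (all 6 libraries), 424 and 267 by edgeR without Control replicate 1, 543 and 416 by DESeq2 without it, and 989 and 778 in limma without both replicates 1. With no filter on low values, 1 gene was called higher. Leaving out each replicate in turn gave 0 to 413 higher and 0 to 238 lower, all but 1 of these calls without Control replicate 1. For the members, the numbers higher and lower were 2 and 2 with array weights, 0 and 2 by DESeq2, 1 and 2 by edgeR and 1 and 3 by DESeq2 without Control replicate 1, 1 and 4 without both replicates 1, and 0 to 1 and 0 to 2 with each replicate left out. The median log2 fold change of the transporters moved from -0.11 to -0.020 with array weights, -0.030 without Control replicate 1 and -0.017 without both replicates 1. Whether the replicate numbers pair the samples is not known. Deviations from the group mean correlated weakly between libraries of the same number (0.13, 0.07 and -0.03), which cannot settle it. Both replicates 1 had a negative Spearman rho of deviation with transcript length (-0.17 and -0.47), and the other libraries a positive one (0.09 to 0.35). With the replicate block limma called 0 members, with a smallest adjusted p of 0.184 (Pfkp).

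Of 624 values under alternatives of the 25 genes chosen by the rule for named genes, 18 changed sign, in 4 genes. Other genes given in the report with values near 0 were not in that tally, and some changed sign too: Mxi1 (-0.04) reached 0.022 and Hk2 (0.01) -0.047 with 1 replicate left out, and Egln1 (0.12) was -0.0097 without both replicates 1. Gapdh (-0.01 as reported) was 0.0061 with equal totals, 0.040 with array weights, 0.027 without both replicates 1, 0.058 by edgeR and 0.052 by DESeq2 without Control replicate 1, and -0.066 to 0.055 with each replicate left out. Slc16a3 (0.01) was -0.0026 without both replicates 1, -0.023 by edgeR and -0.029 by DESeq2 without Control replicate 1, and -0.025 to 0.053 with each replicate left out. Hif1a (-0.22) was 0.0097 without both replicates 1 and -0.32 to -0.03 with each replicate left out. Ldha (-0.02) was 0.010 with quantile normalisation and -0.084 to 0.017 with each replicate left out. In each of these the cause was not tested.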
